A study of Mus musculus with 26 samples.

Results

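DNA replication genes were followed on 26 mouse expression arrays of Group3 medulloblastoma tumors and neurospheres. The set holds 47 genes for the proteins that choose, open and copy replication origins, and it was named gene by gene from their known functions. Each gene was read from its brightest probe set with a single gene symbol, which gave values for 45 of the 47, among 17097 genes in all. Orc3, an origin recognition subunit, and Chaf1a, a subunit of chromatin assembly factor 1, were not analysed here. The 45 genes comprise 6 of the MCM helicase, 5 of the origin recognition complex (ORC), 4 that fire origins and 4 of GINS. A further 3, called licensing genes, are Cdc6, Cdt1 and Gmnn, the inhibitor of Cdt1. Others are the sliding clamp Pcna, 5 of its loader RFC and 9 polymerase and primase subunits. The rest are 3 of the single-strand binder RPA, 2 that finish Okazaki fragments, 1 of CAF-1 and 2 that protect forks.

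Group3 arrays carry the genotype Trp53-/-, Cdkn2c-/- with Myc, and the neurospheres they were set against, called Trp53 neurospheres, carry Trp53-/-, Cdkn2c-/- alone, so that every group lacks both genes. All mice were C57BL/6. There were 3 arrays of Group3 secondary tumors, 5 of Group3 tumors, 3 of tumors given pemetrexed with gemcitabine, 3 given gemcitabine, 2 given pemetrexed, 7 of Group3 neurospheres, labelled medulloblastoma cells, and 3 of Trp53 neurospheres, labelled granule neural progenitors of postnatal day P7. A code in the titles, dka or mmm, splits them into 12 and 14 arrays: secondary tumors, 3 of the tumors, 3 of the Group3 neurospheres and the Trp53 neurospheres are dka, and 2 untreated tumors, all treated tumors and 4 Group3 neurospheres are mmm. Drug dose, treatment time, how Myc was introduced and what made a tumor secondary are not given in the sources used here, nor whether the arrays of a group hold different animals or cultures. The p-values below therefore measure only array-to-array spread, which may be technical.

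Before a cell copies its DNA, ORC together with Cdc6 and Cdt1 loads the MCM ring onto origins, and the kinase Cdc7 with its partner Dbf4 then recruits Cdc45 and GINS to turn that ring into a moving helicase. Polymerase alpha and primase start each strand, RFC loads the Pcna clamp, polymerases delta and epsilon extend, and Fen1 and Lig1 join the lagging-strand pieces. Many of these genes are known targets of E2F transcription factors and are transcribed as cells pass from G1 into S phase, so their messenger RNA is widely read as a sign of how much of a tissue is cycling; in medulloblastoma, a tumor of the cerebellum, dividing progenitor-like cells express them.

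The arrays differed in ways that touch every result below. Values of dka arrays ran between 2.56 and 13.9 on the log2 scale, whereas those of mmm arrays other than Group3 neurosphere replicate 7 ran between -0.41 and 16.1, so groups were compared within a code; the difference between codes was taken from such comparisons, and levels set side by side across codes carry this difference in range. The mean of mmm neurosphere replicates 4 to 6 lay within an SD of 0.132 of the dka Group3 neurosphere mean over all probe sets, and replicate 7 differed from that dka mean with an SD of 0.563. The authors may have adjusted values between codes, which the sources used here do not state, and this limits what mmm levels and the difference between codes mean. The granule lineage factor Atoh1 read 9.01 to 10.0 in Trp53 neurospheres, against 3.02 to 5.94 on the Group3 arrays of either code. Mycn, a relative of Myc, read 12.38 to 15.35 on Group3 arrays, against 4.46 to 4.82 in Trp53 neurospheres, while Myc read 6.93 to 9.48 on Group3 arrays, against 8.09 to 9.06 in Trp53 neurospheres. The Myc values thus overlap and go against the label, and the groups keep their labelled names; whether the probe set reads the introduced Myc is not given in the sources used here. In dka Group3 neurospheres 1 array, replicate 2, held the lowest value for 43 of the 45 replication genes. Because these are bulk RNA values, fewer cycling cells and less RNA per cell cannot be told apart.

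The promoters of 38 of the 47 genes were listed in RefSeq (build GRCm38.p6). An E2F motif, taken as TTTCCCGC, TTTCGCGC, TTTGGCGC or TTTGCCGC on either strand between 250 bases before and 50 after the annotated start, occurred in 15 of the 38 genes, or 39.5%, against 3.79% of the 13605 measured genes with a listed promoter. A CCAAT box, the letters CCAAT on either strand, occurred in 57.9% of the 38, against 42.3%. The 38 include Orc3, which had an E2F match, and Chaf1a, neither of them among the measured genes. Of the 36 measured genes among the 38, 14 had an E2F match. The 250 bases before the start are shown for the 3 MCM ring genes with a match there, all called in the first comparison, and for Pola1, called in mmm tumors, with the E2F matches in capitals; in Mcm5 and in Mcm6 a pair of matches on opposite strands overlap.
Mcm6, chr1:128359706-128359955, minus strand: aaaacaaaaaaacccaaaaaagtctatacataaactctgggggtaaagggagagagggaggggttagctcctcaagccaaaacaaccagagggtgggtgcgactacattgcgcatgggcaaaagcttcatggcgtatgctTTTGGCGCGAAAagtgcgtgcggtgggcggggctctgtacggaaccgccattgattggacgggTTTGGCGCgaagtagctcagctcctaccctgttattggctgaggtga
Mcm5, chr8:75109259-75109508, plus strand: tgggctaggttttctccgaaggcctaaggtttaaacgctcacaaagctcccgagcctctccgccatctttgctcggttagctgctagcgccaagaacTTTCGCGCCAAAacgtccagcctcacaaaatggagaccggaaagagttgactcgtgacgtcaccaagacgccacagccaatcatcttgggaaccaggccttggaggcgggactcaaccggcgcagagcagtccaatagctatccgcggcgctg
Mcm7, chr5:138171884-138172133, minus strand: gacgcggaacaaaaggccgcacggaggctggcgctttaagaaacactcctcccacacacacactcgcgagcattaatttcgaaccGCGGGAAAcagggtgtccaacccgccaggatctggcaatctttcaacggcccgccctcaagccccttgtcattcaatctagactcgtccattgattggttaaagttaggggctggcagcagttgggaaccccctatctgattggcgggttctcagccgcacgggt
Pola1, chrX:93632156-93632405, minus strand: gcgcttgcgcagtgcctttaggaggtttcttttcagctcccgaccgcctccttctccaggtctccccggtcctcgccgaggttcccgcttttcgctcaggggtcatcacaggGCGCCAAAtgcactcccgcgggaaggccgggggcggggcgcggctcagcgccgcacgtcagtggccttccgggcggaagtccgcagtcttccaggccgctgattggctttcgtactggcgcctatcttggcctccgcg
The matches in Mcm6 begin at -110, -106 and -47, counted from the start. A match is a description of the letters, and 22 of the 36 measured genes with a listed promoter had none in this window, among them Mcm2, which was called in 5 comparisons. Cdc6, Orc1, Rfc3 and Gins3 had a match before the start and passed in no comparison. The 14 genes with a match had a median difference of 0.54 in dka tumors against neurospheres and -0.52 in mmm tumors. The 22 without had 0.4 and -0.6.

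Over the 26 arrays the genes averaged between 6.27 (Orc1) and 12.53 (Pcna) on the log2 scale. The median of the 45 genes was 9.27 to 9.68 on the secondary tumor arrays, 8.97 to 9.30 in dka tumors, 8.39 to 9.13 in dka Group3 neurospheres and 8.89 to 9.02 in Trp53 neurospheres. Among mmm arrays it was 8.54 to 9.12 with both drugs, 8.39 to 8.97 with gemcitabine, 8.67 to 8.95 with pemetrexed, 8.31 to 8.33 in untreated tumors and 8.57 to 8.96 in neurospheres. Secondary tumors were the highest group of the dka arrays apart from an overlap with the tumors at 9.27 to 9.30, and the untreated tumors were the lowest of the mmm arrays, below every other one of that code.

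**Figure D1:**
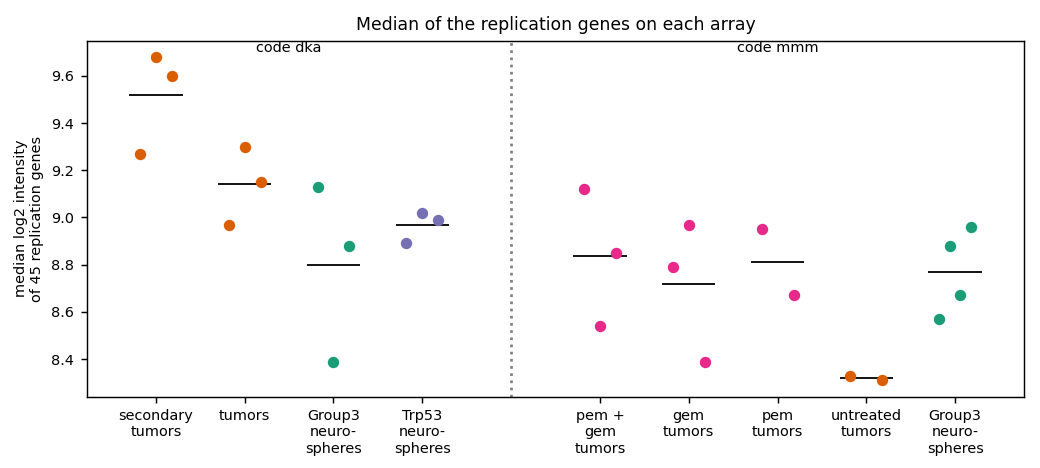
Each point is 1 array and shows the median log2 intensity of the 45 replication genes on it; horizontal lines are group means, dka arrays are left of the dotted line and mmm arrays right of it. The untreated mmm tumors lie at 8.31 and 8.33, and the secondary tumors between 9.27 and 9.68.

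The first comparison set Group3 neurospheres against Trp53 neurospheres, the same knockout background labelled with and without Myc. Myc itself read 7.76 to 8.28 in these Group3 neurospheres, against 8.09 to 9.06 in Trp53 neurospheres, and Mycn read 12.38 to 12.86 against 4.46 to 4.82. Group3 neurospheres carried less messenger RNA of 4 of the 6 MCM subunits, of the loading factor Cdt1 and of Gins1, and more of 1 ORC subunit. Of the 45 genes, 9 fell, or 20.0%, and 1 rose at an adjusted p under 0.05 (limma, Benjamini-Hochberg over 17097 genes), where 9.22% of all genes fell and 13.4% rose. At an unadjusted p under 0.05 there were 17, against 33.2% of all genes. The Group3 arrays lay wholly below the Trp53 arrays for 13 genes and wholly above for 2, against 16.3% and 24.8% of all genes. The median difference was -0.27 for the 45 genes and 0.08 for all genes, on the log2 scale as are all differences below; without Group3 replicate 2 the median was -0.074 and without Group3 replicate 1 it was -0.473.

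The helicase ring held the 2 lowest estimates among the called genes. Mcm6, 1 of the 6 ring subunits, read 10.37, 9.84 and 10.16 in Group3 neurospheres, against 10.99, 11.27 and 11.52 in Trp53 neurospheres, a difference of -1.14 ± 0.21 (SE, adjusted p = 4.63e-04, limma). Mcm2 read 9.28, 8.71 and 8.80 in Group3 neurospheres, against 9.79, 9.69 and 10.17 in Trp53 neurospheres (-0.96 ± 0.18, limma adjusted p = 4.66e-04). For both subunits every Group3 array lay below every Trp53 array. Mcm5 differed by -0.78 (limma adjusted p = 0.0348) with 1 overlapping array, 9.67, 8.33 and 8.82 in Group3 neurospheres against 9.66, 9.67 and 9.83. Mcm7, at 10.58, 10.17 and 10.60 against 10.92, 11.31 and 11.32, differed by -0.73 (limma adjusted p = 0.0179) with no overlap. The other ring subunits, Mcm3 and Mcm4, did not pass, with -0.37 and -0.08.

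Among the genes that load the ring, Cdt1, the loading factor, read 10.51, 9.92 and 10.06 in Group3 neurospheres, against 10.72, 11.14 and 10.98 in Trp53 neurospheres (-0.78 ± 0.25, limma adjusted p = 0.0266). Its partner Cdc6 had a larger estimate, -1.0 ± 0.37, that did not pass (limma adjusted p = 0.0601); its Group3 arrays spread from 6.44 to 7.87. ORC went the other way in 1 subunit: Orc5 read 9.33, 9.62 and 9.58 in Group3 neurospheres, against 8.83, 8.68 and 8.74 in Trp53 neurospheres (0.75 ± 0.17, limma adjusted p = 0.00245). The lowest ORC estimate, that of Orc1, was -0.51 (6.75, 4.80 and 6.36 in Group3 neurospheres, 6.11, 6.55 and 6.78 in Trp53 neurospheres) and did not pass. So within ORC the only called member rose, while within the MCM ring 4 of 6 fell.

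Further along the fork, Pole, the catalytic subunit of the leading-strand polymerase epsilon, read 8.26, 7.69 and 8.0 in Group3 neurospheres, against 8.73, 8.95 and 8.76 in Trp53 neurospheres (-0.83 ± 0.20, limma adjusted p = 0.00452). Prim1, the catalytic primase subunit, read 9.40, 9.0 and 9.48 against 9.96, 10.17 and 9.97 in the same order of groups (-0.74, limma adjusted p = 0.0359). Both sets of arrays were apart. Tipin, which holds the fork together with Timeless, fell by 0.65 (10.72, 9.97 and 10.36 in Group3 neurospheres, 10.87, 11.09 and 11.06 in Trp53 neurospheres), and Gins1, a GINS subunit, fell by 0.58 (8.81, 8.14 and 8.56 in Group3 neurospheres, 8.91, 9.19 and 9.17 in Trp53 neurospheres). The highest estimate of GINS was 0.42 for Gins4 (9.74, 8.56 and 9.45 in Group3 neurospheres, 8.51, 9.02 and 8.95 in Trp53 neurospheres), which did not pass. No member of RFC, RPA or polymerase delta passed; their estimates ran from -0.43 for the loader subunit Rfc2 to 0.64 for Pold2, a polymerase delta subunit. Pold2 read 10.81, 10.38 and 10.66 in Group3 neurospheres, against 9.94, 9.80 and 10.18 in Trp53 neurospheres, without overlap. Rfc2 read 9.81, 9.11 and 9.79 in Group3 neurospheres, against 9.80, 9.95 and 10.24, and Rfc4, the highest of its complex at 0.04, read 10.17, 9.30 and 10.24 against 9.12, 10.13 and 10.35; both sets of arrays overlapped. Mcm2, Mcm6, Pole and Orc5 kept their calls under every alternative setting and with each array left out; without Group3 replicate 2, whose readings were the lowest of its group for most genes, 3 of the 45 genes were lower and 3 higher. Without Trp53 replicate 2, and likewise without replicate 3, 4 were lower and 1 higher. Markers of other cells differed too: neuron markers fell in 7 of 15, granule lineage markers in 6 of 6 and microglia and macrophage markers in 11 of 19. Endothelium markers fell in 4 of 17, fibroblast and pericyte markers in 2 of 14 and red blood cell markers in 1 of 2. Astrocyte markers rose in 4 of 10 and fell in 1, and oligodendrocyte markers rose in 2 of 12. The part of all these markers in the replication differences was not tested.

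Other replication genes, a list of 58 with 50 measured, had 4 higher and 8 lower. The largest differences were rises, of 1.92 for Polk, a translesion polymerase, 1.03 for Hus1, part of the checkpoint clamp, and 1.01 for Rad17. Dut, which keeps uracil out of DNA, fell by 0.87 and Top2a, the topoisomerase of dividing cells, fell by 0.87. The mitosis list had 2 higher, 0 lower and a median of -0.06 over 21 genes.

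Group3 tumors were then set against Group3 neurospheres, separately in each code. The dka neurosphere arrays were those of the first comparison, so low readings there lower the estimates above and raise these. In dka, tumors carried more messenger RNA of 4 of the 6 MCM subunits, of Cdt1 and of Fen1, by up to 2.41-fold. Of the 45 genes, 11 rose, or 24.4%, and 0 fell, where 8.81% of all genes rose and 9.74% fell (limma, adjusted p under 0.05). At an unadjusted p under 0.05 20 were higher and 0 lower, where 29.9% of all genes passed in either direction. With array weights again none fell, where 10.5% of all genes fell. All 3 tumor arrays lay above all 3 neurosphere arrays for 17 genes, against 17.3% of all genes. The median difference was 0.37, against 0.005 over all genes, and 36 of 45 estimates were above 0; without neurosphere replicate 2 the median was 0.175.

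Of ORC, the licensing genes and the MCM ring, 6 of 14 passed, and Mcm2 and Cdt1 had the largest estimates. Mcm2 read 10.26, 10.16 and 10.16 in dka tumors, against 9.28, 8.71 and 8.80 in the neurospheres (1.27 ± 0.18, limma adjusted p = 5.84e-05). Cdt1 read 11.40, 11.46 and 11.19 in tumors, against 10.51, 9.92 and 10.06 in neurospheres (1.18 ± 0.25, limma adjusted p = 0.00217). In both genes every tumor array lay above every neurosphere array. Mcm3 rose by 0.80, with 8.50, 9.28 and 8.87 in tumors against 8.66, 7.69 and 7.90 in neurospheres, so that 1 neurosphere array reached the tumor range; its other probe set gave 0.24, which did not pass. Mcm5 and Mcm6 rose by 0.78 and 0.76, and the lowest of the ring, Mcm4, had an estimate of -0.05 (8.94, 9.69 and 9.84 in tumors, 10.20, 8.99 and 9.45 in neurospheres). Orc2 was the only ORC subunit to pass, at 9.17, 8.85 and 9.15 in tumors against 8.45, 8.07 and 8.16 in neurospheres (0.83, limma adjusted p = 0.00359); Orc4 had the lowest ORC estimate, -0.12 (8.57, 8.78 and 8.69 in tumors, 8.81, 8.70 and 8.89 in neurospheres), and its arrays overlapped.

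Gins1 read 9.30, 9.44 and 9.46 in dka tumors, against 8.81, 8.14 and 8.56 in neurospheres (0.89 ± 0.16, limma adjusted p = 5.89e-04). Its complex was split, since Gins2 and Gins4 had estimates of -0.26 and -0.14 and Gins3 one of 0.30, none of which passed; Gins2 read 7.77, 8.0 and 8.41 in tumors, against 8.85, 7.63 and 8.47 in neurospheres. Pola2, the regulatory subunit of polymerase alpha, read 8.65, 8.76 and 8.44 in tumors, against 7.96, 7.26 and 7.48 in neurospheres (1.05, limma adjusted p = 0.012). Pole rose by 0.84, with 8.95, 8.83 and 8.69 in tumors against 8.26, 7.69 and 8.0. The catalytic subunit Pola1 sat at -0.07, so the 2 polymerase alpha subunits differed in estimate. The lowest polymerase estimate was -0.12 for Pole2, the second subunit of polymerase epsilon, at 7.74, 8.55 and 7.93 in tumors against 8.44, 7.64 and 8.51 in neurospheres. Mcm10, which helps the helicase to start, rose by 0.73. In RFC no member passed; the estimates ran from -0.42 for Rfc3 (8.28, 9.02 and 8.77 in tumors, 9.40, 8.60 and 9.34 in neurospheres) to 0.65 for Rfc5 (9.47, 9.40 and 9.45 in tumors, 9.24, 8.25 and 8.88 in neurospheres). The Rfc5 tumor arrays were all above its neurosphere arrays, and those of Rfc3 overlapped.

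Fen1, the flap nuclease of Okazaki fragments, read 9.17, 9.47 and 9.87 in dka tumors, against 8.92, 7.88 and 7.89 in neurospheres (1.27 ± 0.25, limma adjusted p = 0.00119). Its partner Lig1, the ligase of the same step, had an estimate of 0.04. Cdt1, Fen1, Gins1, Mcm2, Orc2 and Pole kept their calls under every alternative setting and left-out array. Without neurosphere replicate 2 the count was 6, and without tumor replicate 2 it was 7. Microglia and macrophage markers rose in 12 of 19 and neuron markers in 8 of 15 in these tumors, with array means of 5.96 to 6.22 in tumors against 3.90 to 4.09 in neurospheres for the microglia list. Endothelium markers rose in 14 of 17, with 5.25 to 6.49 in tumors against 4.07 to 4.25, and fibroblast and pericyte markers in 9 of 14. Oligodendrocyte markers rose in 2 of 12 and fell in 2, astrocyte markers fell in 3 of 10, and red blood cell markers rose in 1 of 2. Whether these cells bear on the replication values was not tested.

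Other replication genes in dka tumors counted 10 higher and 1 lower, led by Dut (1.36), Ccne1 (1.28), the E cyclin of S phase entry, and Chtf18 (1.11), part of an alternative clamp loader. Polk fell by 1.08. The mitosis list had 0 higher and 2 lower with a median of 0.00, beside the median of 0.37 for the replication genes.

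In mmm the same comparison pointed the other way. Of the 45 genes, 18 fell, or 40.0%, and 1 rose, where 11.5% of all genes fell and 10.6% rose. The median difference was -0.58, against -0.05 over all genes. At an unadjusted p under 0.05 there were 21, against 33.8%. In 26 of the 45 both tumor arrays lay below all 4 neurosphere arrays and in 3 above them, against 23.8% and 19.6% of all genes.

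Polymerase alpha and primase had the lowest median of the complexes with more than 1 gene, -1.0. Pola1 read 7.89 and 7.99 in mmm tumors, against 8.47, 9.23, 8.95 and 9.48 in the neurospheres (-1.09 ± 0.28, limma adjusted p = 0.00841). Pola2 read 6.63 and 6.51 in tumors, against 7.61, 7.75, 7.16 and 8.01 in neurospheres (-1.06, limma adjusted p = 0.0141). Prim2, the accessory primase subunit, read 7.55 and 7.58 against 7.92, 8.69, 8.60 and 8.76 (-0.93, limma adjusted p = 0.013). No tumor array overlapped a neurosphere array in any of the 3, and Prim1, with -0.69, did not pass. Polymerase delta differed: Pold2 and Pold1 had estimates of 0.40 and -0.77, neither called; Pold2 read 10.76 and 10.80 in tumors, against 10.84, 10.60, 10.22 and 9.85 in neurospheres.

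Chaf1b, which carries histones to new DNA, read 5.97 and 5.90 in mmm tumors, against 7.21, 7.01, 6.53 and 7.29 in neurospheres (-1.08, limma adjusted p = 0.0421). Rfc5, a clamp loader subunit, read 7.87 and 8.0 against 8.56, 8.88, 8.91 and 9.28 (-0.97, limma adjusted p = 0.00703), and Rfc1, the large loader subunit, read 7.99 and 8.05 against 8.97, 8.89, 8.65 and 9.21 (-0.91, limma adjusted p = 0.00451). Rfc3 had the highest estimate of the loader, 0.04 (8.79 and 8.80 in tumors, 8.37, 9.60, 8.92 and 8.13 in neurospheres), so the subunits of RFC spread over about 1 log2 unit. Mcm3 read 7.10 and 7.27 in tumors, against 7.97, 8.45, 7.73 and 8.42 in neurospheres (-0.96, limma adjusted p = 0.0157). Tipin read 9.32 and 9.47 against 10.04, 10.66, 10.21 and 10.39 (-0.93, limma adjusted p = 0.00958). Again the tumor arrays lay below all neurosphere arrays in each of these except Rfc3.

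Smaller falls that passed were those of Pole and Timeless (both -0.85), Orc5 (-0.82), Rpa1 (-0.81), Lig1 (-0.77), Dbf4 (-0.75), Gmnn, the inhibitor of Cdt1 (-0.72), Mcm6 (-0.67), Mcm2 and Rfc2 (both -0.58). Gins1 was the exception, with 9.10 and 9.21 in mmm tumors against 8.33, 8.52, 8.42 and 8.63 in neurospheres (0.68 ± 0.17, limma adjusted p = 0.00615). The lowest of its complex, Gins2, had an estimate of -0.51 (7.61 and 7.68 in tumors, 8.15, 8.24, 8.0 and 8.21 in neurospheres). In the MCM ring the highest estimate was 0.13 for Mcm5 (8.83 and 8.84 in tumors, 8.57, 8.98, 8.63 and 8.62 in neurospheres), which did not pass. ORC ran from -0.88 for Orc1 (5.35 and 5.13 in tumors, 5.73, 5.85, 5.99 and 6.92 in neurospheres) to 0.28 for Orc4 (9.06 and 9.13 in tumors, 8.68, 8.86, 8.67 and 9.05 in neurospheres), neither called although the arrays of both were apart. For Pold3 the brightest probe set gave 0.22 and another gave -0.75. No call of this comparison held under every setting: leaving out either tumor left 2 calls, with the lone tumor array assumed to vary like the other groups, and leaving out neurosphere replicate 7 left 12.

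Markers of other cells stood far apart in the mmm tumors. Microglia and macrophage markers rose in 19 of 19, with array means of 7.57 to 7.72 in tumors against 3.84 to 4.11 in neurospheres, and neuron markers rose in 11 of 15, with 8.61 to 8.66 against 4.10 to 5.59. Oligodendrocyte markers rose in 7 of 12 and astrocyte markers in 4 of 10, with 1 lower. Endothelium markers rose in 11 of 17 and fibroblast and pericyte markers in 5 of 14. Red blood cell markers rose in 2 of 2, with 8.42 to 8.57 in tumors against 4.04 to 4.37 in neurospheres. The part of these cells in the lower replication values was not tested. Mitosis markers fell in 9 of 21, with a median of -0.78, and other replication genes had 0 higher and 14 lower, led by Ccna2 (-1.60), the A cyclin of S phase, Mtbp (-1.43), an origin firing factor, and Cdk2 (-1.39), the S phase kinase.

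**Figure D2:**
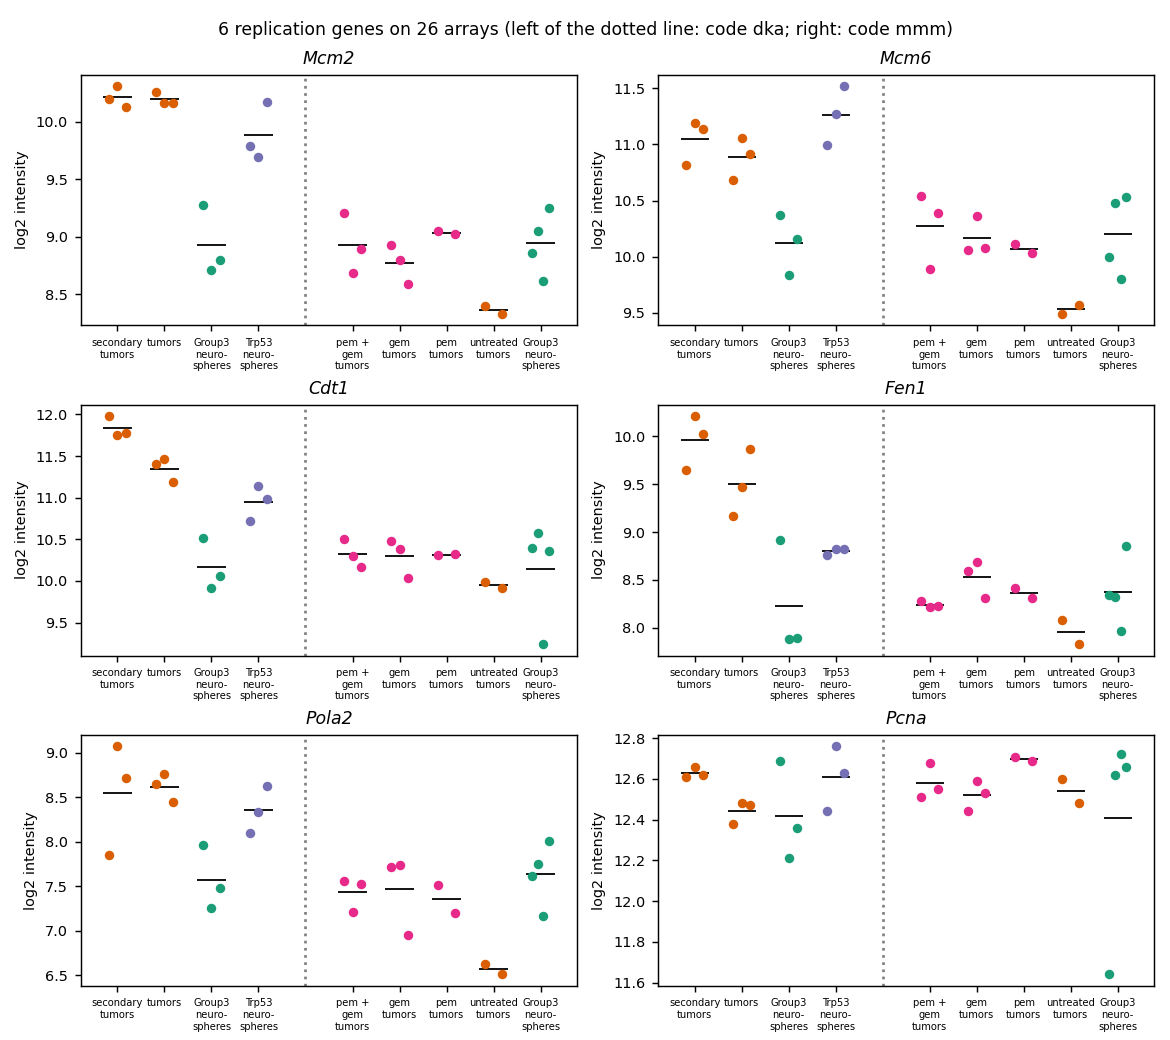
Log2 intensity of Mcm2, Mcm6, Cdt1, Fen1, Pola2 and Pcna on each of the 26 arrays (points) with group means (lines), dka arrays left of the dotted line and mmm arrays right of it; each panel has its own scale. Mcm2 lies above its neurospheres in dka tumors (10.16 to 10.26 against 8.71 to 9.28) and below them in mmm tumors (8.33 and 8.40 against 8.62 to 9.25), while Pcna stays between 11.64 and 12.76 on all arrays.

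The difference between the codes was tested directly, as the tumor difference in mmm minus that in dka. It was below 0 for 39 of 45 genes, with a median of -0.85 against -0.03 over all genes. Of the 45, 12 genes, or 26.7%, passed as lower and 0 as higher (limma, adjusted p under 0.05). Over all genes 4.80% passed as lower and 4.36% as higher. With array weights 20 passed as lower and 0 as higher, where 7.83% and 7.35% of all genes did. At an unadjusted p under 0.05 28 were lower and 0 higher, where 25.6% of all genes passed in either direction. Pola2 gave the largest size, -2.12 ± 0.41 (limma adjusted p = 0.00561), being 1.05 higher in dka tumors and 1.06 lower in mmm tumors than in the neurospheres of their code. Mcm2 gave -1.85 ± 0.26 (limma adjusted p = 6.15e-04). Mcm3, Pole, Fen1 and Rfc5 followed between -1.75 and -1.62. Mcm6, Tipin, Cdt1, Rfc1, Prim1 and Gmnn passed between -1.43 and -1.27.

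Of the 11 genes that rose in dka tumors, 5 fell in mmm tumors: Mcm2, Mcm3, Mcm6, Pola2 and Pole. In all, 29 of the 45 were above 0 in dka and below 0 in mmm, and 3 were the reverse. How many of all genes changed call or sign in this way was not counted, so these counts have no background beside them. Gins1 rose in both codes. Mcm2, Pola2, Pole and Rfc5 kept the code difference under every setting and left-out array. The title code and the markers of other cells cannot be told apart here: the mmm tumors were 0.88 lower than the dka tumors in the median of the 45 genes, and their microglia list means were 7.57 to 7.72 against 5.96 to 6.22, a gap whose part in the code difference was not tested. Without mmm tumor replicate 4 there were 5 calls and without replicate 5 there were 7, with the lone tumor array assumed to vary like the other groups.

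**Figure D3:**
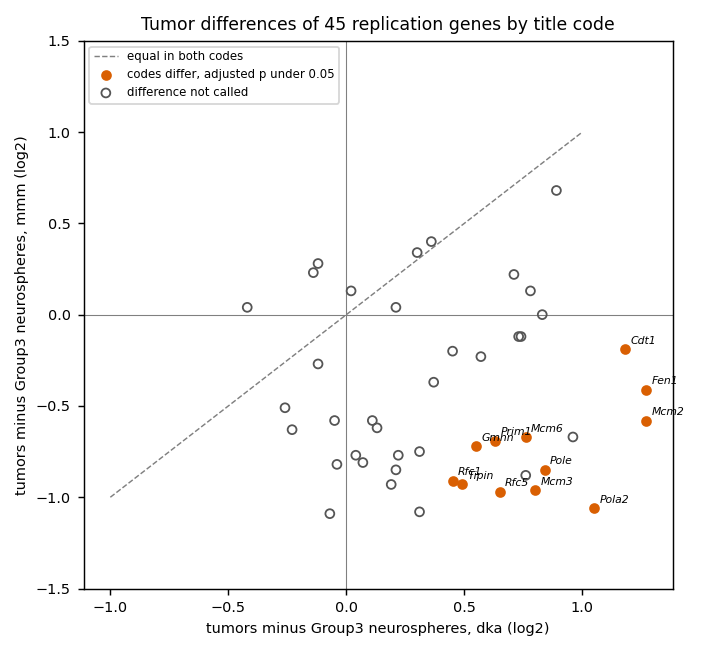
Each point is 1 of the 45 replication genes, with its tumor minus neurosphere log2 difference in dka on the horizontal axis and in mmm on the vertical axis; filled points are the 12 genes whose difference between the codes passed, and the dashed line marks equal differences. Pola2 lies at 1.05 and -1.06, and 29 points lie right of and below the zero lines.

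Secondary tumors, all dka, had many replication genes higher than in neurospheres and none called against the tumors. Against the tumors 0 of 45 genes rose or fell (limma, adjusted p under 0.05), where 0.263% and 0.275% of all genes did. At an unadjusted p under 0.05 there were 2, Rpa2 and Pola1, where 12.7% of all genes passed in either direction. With array weights 2 rose, Rpa2 among them, where 1.25% of all genes rose and 2.22% fell. Rpa2, the middle subunit of the single-strand binder, read 9.76, 9.88 and 9.84 in secondary tumors, against 8.97, 9.11 and 8.94 in tumors (0.82 ± 0.26, limma adjusted p = 0.17). Rfc3 came next in size, at 0.62 with a 95% interval of -0.01 to 1.24 (9.42, 9.26 and 9.26 in secondary tumors, 8.28, 9.02 and 8.77 in tumors). Neither pair of groups overlapped. Secondary tumor arrays lay wholly above the tumor arrays for 7 of the 45 genes and wholly below for 2, against 7.66% and 10.5% of all genes. The median over the 45 genes was 0.09 (0.013 without secondary replicate 2 and 0.266 without secondary replicate 1), with a 95% interval of about ±0.52 around a typical gene. A second, dimmer probe set of Timeless was higher by 1.33 (limma adjusted p = 0.0339) where its brighter one gave -0.03; that p is adjusted over all probe sets other than controls.

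Against Group3 neurospheres the secondary tumors had 18 genes higher, or 40.0%, and 0 lower, where 10.2% of all genes rose and 14.5% fell. These neurosphere arrays also served the first comparison and that of the dka tumors. At an unadjusted p under 0.05 22 were higher and 0 lower, where 34.9% of all genes passed in either direction. Array weights gave none lower, where 18.1% of all genes fell. Fen1 read 9.65, 10.21 and 10.02 in secondary tumors, against 8.92, 7.88 and 7.89 in neurospheres (1.72 ± 0.25, or 3.30-fold, limma adjusted p = 5.00e-05). Cdt1 read 11.98, 11.75 and 11.78 against 10.51, 9.92 and 10.06 (1.67 ± 0.25, limma adjusted p = 6.98e-05). Mcm2 read 10.20, 10.31 and 10.13 against 9.28, 8.71 and 8.80 (1.29, limma adjusted p = 3.03e-05). In all 3 genes every secondary tumor array lay above every neurosphere array. That held for 17 of the 45 genes, against 17.6% of all genes, and the reverse for 0, against 21.5%.

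Cdc7, the kinase that fires origins, read 9.99, 10.03 and 9.81 in secondary tumors, against 8.98, 8.39 and 8.80 in neurospheres (1.22, limma adjusted p = 0.00372), and its activator Dbf4 rose by 0.72. Gmnn read 9.55, 9.34 and 9.31 against 8.83, 7.79 and 8.59 (0.99, limma adjusted p = 0.00207), Orc2 read 8.83, 9.50 and 9.36 against 8.45, 8.07 and 8.16 (1.0, limma adjusted p = 5.06e-04), and Gins1 read 9.42, 9.77 and 9.79 against 8.81, 8.14 and 8.56 (1.15, limma adjusted p = 3.27e-05). Rpa2 read 9.76, 9.88 and 9.84 against 9.13, 7.66 and 8.88 (1.27), again without overlap. Thus both the kinase and its activator passed here, whereas in dka tumors neither did; that difference between tumors was the secondary comparison above, 0.48 for Cdc7, which did not pass. The highest and lowest GINS estimates were 1.15 for Gins1 and -0.26 for Gins2 (7.53, 8.34 and 8.30 in secondary tumors, 8.85, 7.63 and 8.47 in neurospheres). In ORC the highest estimate, 1.18 for Orc1, did not pass (7.01, 7.17 and 7.27 in secondary tumors, 6.75, 4.80 and 6.36 in neurospheres), and the lowest was -0.04 for Orc5 (9.06, 9.73 and 9.60, against 9.33, 9.62 and 9.58). Among the other complexes Rfc1 rose by 0.82 (9.72, 9.83 and 9.70 in secondary tumors, 9.07, 8.59 and 9.14 in neurospheres), where Rfc2 had -0.01 (9.20, 9.88 and 9.59, against 9.81, 9.11 and 9.79). Pola2 rose by 0.98 (7.85, 9.07 and 8.72 in secondary tumors, 7.96, 7.26 and 7.48 in neurospheres), and Pold1, the catalytic subunit of polymerase delta, had -0.14 (7.27, 8.16 and 7.92, against 8.31, 7.52 and 7.93). Without neurosphere replicate 2 the count was 10 of 45. Microglia markers rose in 16 of 19, endothelium markers in 15 of 17 and neuron markers in 6 of 15 with 1 lower. Fibroblast and pericyte markers rose in 4 of 14 and red blood cell markers in 1 of 2. Astrocyte markers fell in 5 of 10 and oligodendrocyte markers in 2 of 12. The part of all these markers was not tested. Other replication genes had 15 higher and 1 lower, with the largest differences for Dut (1.51), Ccne1 (1.37), Mcm9 (1.17) and Top2a (1.12).

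Set against Trp53 neurospheres, dka tumors had 3 genes higher, or 6.67%, and 0 lower, where 9.15% of all genes rose and 6.45% fell. At an unadjusted p under 0.05 5 were higher and 1 lower, where 28.4% of all genes passed in either direction. Array weights left 0 lower, where 8.73% of all genes fell under those weights. Pold2, the small subunit of polymerase delta, read 10.84, 11.17 and 10.91 in tumors, against 9.94, 9.80 and 10.18 in Trp53 neurospheres (1.0 ± 0.26, limma adjusted p = 0.0115). Orc5 read 9.76, 9.49 and 9.15 against 8.83, 8.68 and 8.74 (0.71, limma adjusted p = 0.00607). Orc2 read 9.17, 8.85 and 9.15 against 8.55, 8.37 and 8.26 (0.66, limma adjusted p = 0.0189). The arrays were apart in all 3, and the share of genes called was no larger than over all genes. Without Trp53 replicate 2 only 1 call was left. Orc5 kept its call under every setting. Endothelium markers rose in 7 of 17 with 1 lower, and fibroblast and pericyte markers rose in 4 of 14. Granule lineage markers fell in 5 of 6, astrocyte markers in 1 of 10 and red blood cell markers in 1 of 2. The part of all these markers was not tested. Members within complexes differed in direction without passing. In the MCM ring Mcm3 had 0.42 (8.50, 9.28 and 8.87 in tumors, 8.34, 8.33 and 8.70 in Trp53 neurospheres) and Mcm6 -0.38 (10.68, 11.06 and 10.91, against 10.99, 11.27 and 11.52). In GINS, Gins1 had 0.31 (9.30, 9.44 and 9.46, against 8.91, 9.19 and 9.17) and Gins3 -0.23 (6.57, 6.89 and 6.56, against 6.87, 6.96 and 6.88). In RFC, Rfc1 had 0.43 (9.60, 9.32 and 9.20, against 8.95, 8.91 and 8.99) and Rfc3 -0.45 (8.28, 9.02 and 8.77, against 8.95, 9.14 and 9.34). Of these 6 genes Gins1 and Rfc1 had tumor arrays wholly above the Trp53 arrays, and the others overlapped. The lowest of ORC was Orc4 at -0.05 (8.57, 8.78 and 8.69, against 8.89, 8.75 and 8.56), and of the polymerases Prim1 at -0.11 (9.81, 10.08 and 9.89, against 9.96, 10.17 and 9.97). The MCM ring had a median of -0.07 here, beside -0.76 for Group3 neurospheres and 0.77 for tumors against those neurospheres. The values -0.76 and 0.77 both rest on the same dka Group3 neurosphere arrays, entered with opposite sign, and are not independent.

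**Figure D4:**
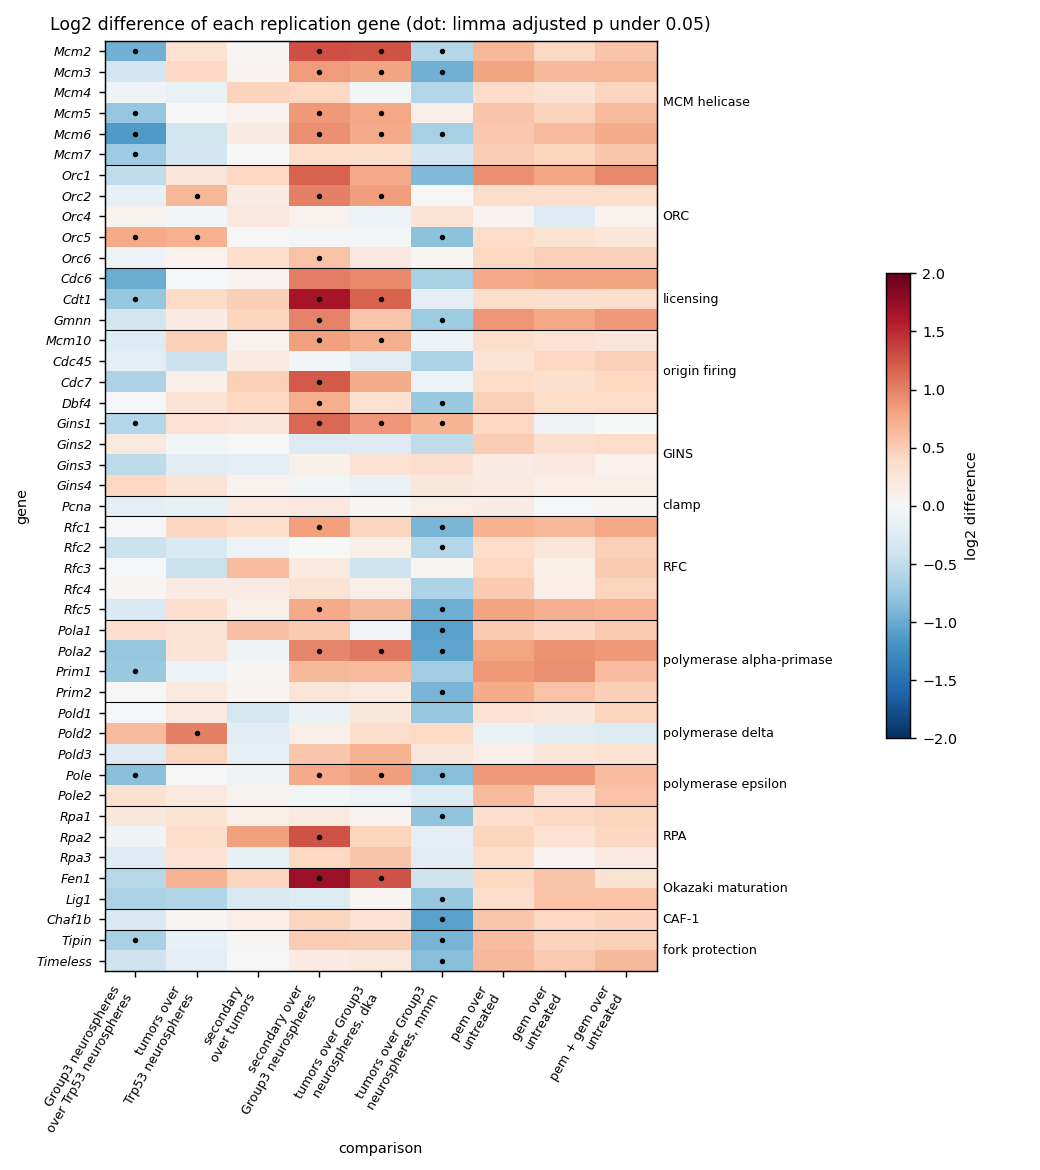
Log2 difference of each of the 45 replication genes (rows, grouped by complex) in 9 comparisons (columns), red for higher and blue for lower in the group named first; dots mark a limma adjusted p under 0.05. Of the 6 MCM rows, 4 are called higher in dka tumors and 3 called lower in mmm tumors, while the 3 drug columns hold no dot.

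The drug groups were set against the 2 untreated mmm tumors. Nearly all replication genes had higher means in treated tumors, and none passed across all genes. With both drugs 43 of 45 estimates were above 0 with a median of 0.47, with gemcitabine 41 with a median of 0.41, and with pemetrexed 44 with a median of 0.45, where the medians over all genes were 0.03, 0.05 and 0.05. These 3 comparisons share the same 2 untreated arrays, which had the lowest replication medians of their code. The lower values of mmm tumors against neurospheres and the difference between codes rest on those 2 arrays too, so these results are not independent. No gene passed at an adjusted p of 0.05 with limma in any of them, where 0.0526%, 0% and 0% of all genes rose and 0.0234%, 0% and 0% fell with both drugs, gemcitabine and pemetrexed in that order. At an unadjusted p under 0.05 15 genes passed with both drugs, 10 with gemcitabine and 13 with pemetrexed, all higher, where 7.90%, 8.61% and 4.72% of all genes passed in either direction.

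Array weights, which give less weight to arrays that scatter more, raised the counts of higher genes to 6 with both drugs, 27 with gemcitabine and 7 with pemetrexed, where 1.51%, 12.4% and 0.462% of all genes rose under those weights. Every array of a treated group lay above both untreated arrays for 35 genes with both drugs, 24 with gemcitabine and 39 with pemetrexed, where 22.2%, 20.4% and 30.3% of all genes did. They lay below both for 1 gene in each comparison, against 16.4%, 9.38% and 20.3%. Gemcitabine replicate 3 was the lowest of its group for 41 of the 45 genes.

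Named members show the size. With both drugs Orc1, the large ORC subunit, read 6.75, 6.02 and 5.83, against 5.35 and 5.13 in untreated tumors (0.96, 95% interval -0.05 to 1.97, limma adjusted p = 0.649). Gmnn read 9.02, 8.46 and 8.22 with both drugs, against 7.66 and 7.74 untreated (0.86, interval 0.36 to 1.37, limma adjusted p = 0.315), and Pola2, also at 0.86, read 7.56, 7.21 and 7.53, against 6.63 and 6.51 untreated. With gemcitabine Prim1 read 9.58, 9.80 and 9.14, against 8.58 and 8.60 untreated (0.92, interval 0.34 to 1.49, limma adjusted p = 0.416). In each the treated arrays lay above both untreated arrays. With gemcitabine Pola2 read 7.72, 7.74 and 6.95, against 6.63 and 6.51 untreated (0.90, limma adjusted p = 0.435). With pemetrexed Orc1 read 6.17 and 6.14, against 5.35 and 5.13 untreated (0.92, limma adjusted p = 1), and Gmnn read 8.58 and 8.59, against 7.66 and 7.74 untreated (0.88, limma adjusted p = 0.925). With array weights Gmnn passed with pemetrexed (adjusted p = 0.027) and with both drugs (0.0149), and Prim1 and Pola2 passed with gemcitabine (2.28e-04 and 3.46e-04).

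By complex, polymerase alpha and primase had medians of 0.57, 0.75 and 0.77 with both drugs, gemcitabine and pemetrexed. In that order the licensing genes, the inhibitor Gmnn among them, had 0.80, 0.77 and 0.75, and the MCM ring 0.60, 0.45 and 0.55. GINS stood lower, at 0.11, 0.17 and 0.30, and Pcna at 0.04, -0.02 and 0.16. Pold2 was below 0 in each, at -0.28, -0.22 and -0.13. With gemcitabine its arrays read 10.90, 10.99 and 9.78, against 10.76 and 10.80 untreated, so only replicate 3 lay below the untreated arrays. Polymerase delta thus held the lowest estimate with both drugs and with pemetrexed, and with gemcitabine the lowest was Orc4, at -0.25 (8.93, 8.94 and 8.65 with gemcitabine, 9.06 and 9.13 untreated).

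**Figure D5:**
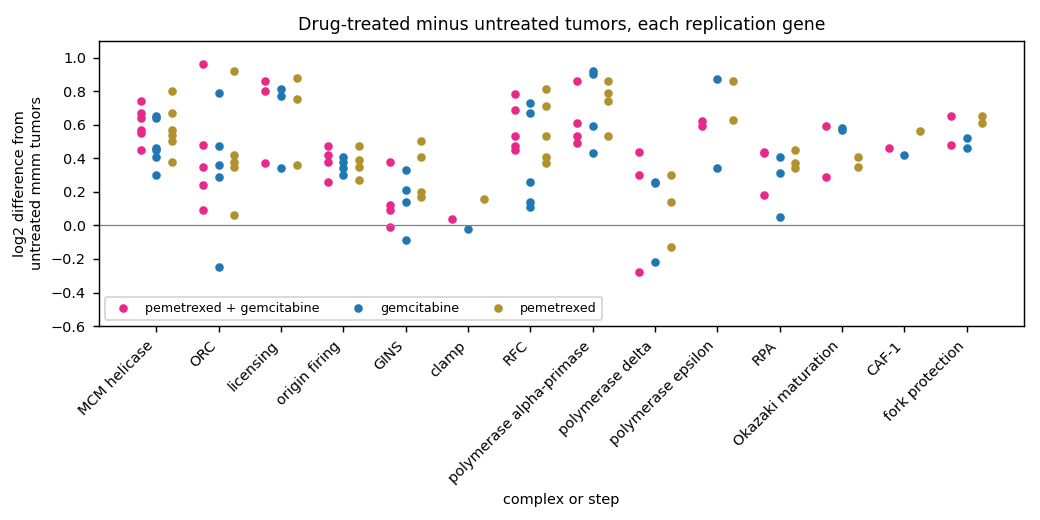
Each point is 1 replication gene, placed by complex or step, with its log2 difference from the 2 untreated mmm tumors; colours give pemetrexed with gemcitabine, gemcitabine alone and pemetrexed alone, and no gene passed at an adjusted p of 0.05. The medians are 0.47, 0.41 and 0.45, with the Pold2 estimate below 0 in all 3 groups, for gemcitabine through replicate 3 alone.

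Neuron and astrocyte markers varied among the mmm tumor arrays too. The neuron list averaged 6.63, 8.16 and 7.64 with both drugs, 7.33, 6.30 and 8.85 with gemcitabine and 7.31 and 8.03 with pemetrexed, against 8.66 and 8.61 in untreated tumors. The astrocyte list averaged 6.53, 8.32 and 7.97 with both drugs, 7.45, 5.81 and 9.06 with gemcitabine and 6.93 and 8.11 with pemetrexed, against 8.84 and 8.36 untreated. Gemcitabine replicate 3, the array lowest for 41 replication genes, had the highest neuron and astrocyte means of the 10 mmm tumor arrays, and gemcitabine replicate 2, highest of its group for 37, had the lowest. No marker of either list passed the test in any drug comparison. The neuron list medians were -1.05, -0.93 and -1.30 with both drugs, gemcitabine and pemetrexed. In the same order the oligodendrocyte list had -1.47, -1.06 and -1.24. The red blood cell list, with 2 genes measured, had 0.75, -0.19 and -1.06, and neither list held a call. The part of all these markers in the replication values was not tested. The mitosis list had medians of 0.35, 0.53 and 0.50, and other replication genes 0.41, 0.46 and 0.36, with 0 called in each.

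Adding pemetrexed to gemcitabine, or gemcitabine to pemetrexed, was compared directly. Against gemcitabine alone the combination gave 0 called genes, a median of 0.05 (-0.113 without gemcitabine replicate 3) and 1 gene at an unadjusted p under 0.05, Orc4, which read 8.99, 9.24 and 9.34 with both drugs, against 8.93, 8.94 and 8.65 with gemcitabine (0.35, 95% interval 0.05 to 0.65, limma adjusted p = 0.903). Rfc3 had a larger estimate, 0.42, with an interval of -0.20 to 1.05 (9.45, 9.26 and 9.27 with both drugs, 9.01, 9.29 and 8.41 with gemcitabine), and its arrays overlapped. Against pemetrexed alone it gave 0 called genes, a median of -0.02 (0.042 without pemetrexed replicate 1) and 1 gene at an unadjusted p under 0.05, Gins1, which read 9.27, 9.16 and 8.99 with both drugs, against 9.56 and 9.57 with pemetrexed (-0.42, interval -0.79 to -0.05, limma adjusted p = 1). Next in size was Prim2 at -0.25 (8.36, 8.09 and 7.72 with both drugs, 8.41 and 8.20 with pemetrexed), which overlapped. Over all genes 0% rose and 0% fell in both comparisons, and 5.25% and 2.50% had an unadjusted p under 0.05. The arrays did not overlap for 1 higher and 1 lower gene against gemcitabine, where 4.42% and 6.57% of all genes did not, and for 1 higher and 3 lower genes against pemetrexed, where 8.31% and 10.4% did not. A typical interval reached 0.52 to either side against gemcitabine and 0.58 against pemetrexed, and the groups are not shown to be alike.

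Of the 45 genes, 15 passed in none of the comparisons: Pcna, Mcm4, Orc1, Orc4, Cdc6, Cdc45, Gins2, Gins3, Gins4, Rfc3, Rfc4, Pold1, Pold3, Pole2 and Rpa3. Pcna, the brightest, stayed between 11.64 and 12.76 on all 26 arrays, and its dka tumor arrays read 12.38, 12.48 and 12.47 against 12.69, 12.21 and 12.36 in neurospheres. Orc1 was the dimmest and among the most variable, between 4.80 and 7.42, and its estimate of 0.96 with both drugs did not pass.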

How the data were processed

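Total RNA was extracted with Trizol, amplified with NuGEN Ovation Pico WTA V2, labelled with NuGEN Encore Biotin and hybridised to Affymetrix HT MG-430 PM arrays, per the labels' protocols. The deposited values are log2 intensities made by the authors with RMA and Partek 6.6, per the submitters' processing notes, and were used as they stood. Of 45141 probe sets, 28898 had 1 gene symbol; the brightest per gene gave 17097 genes. Among the 45 measured replication genes 26 had more than 1 probe set. Limma 3.58.1 in R 4.3.3 fitted all 26 arrays with 1 mean for each of 9 combinations of group and title code; 12 contrasts were tested, with Benjamini-Hochberg adjustment over all genes at 0.05. SE is the moderated standard error, intervals are 95%, and the number of arrays limits precision. Replicate numbers follow deposit order. The genes and lists were chosen with earlier results of these data known. Any of the genes may be named; array values are given for up to 8 higher and 8 lower called genes per comparison, for the extremes of split complexes, or for the 2 largest differences where none passed. The probe-set rule, a filter at a mean of 5, quantile normalization, array weights, a fit within each code, a trended robust variance and each left-out array were alternatives. The fit was tested on simulated data with noise drawn separately for each gene and array. That test cannot show how calls behave where a whole array is shifted.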

Additional observations from a re-analysis of the deposited data

Results flagged for a closer look

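Among 135 sets of 4 or more arrays checked for a lone extreme value (chance marks about 1 in 20), 5 stood out, no more than that rate gives. In mmm Group3 neurospheres these were Mcm5, highest at 8.98 in replicate 5, Cdt1, lowest at 9.24 in replicate 6, Pcna, lowest at 11.64 in replicate 4, and Lig1, lowest at 8.37 in replicate 5. Over the Group3 tumors of both codes, Gins3 was highest at 6.89 in replicate 2, in a set that joins codes whose values differ in range.

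The tumor minus neurosphere difference itself differed between the codes, as mmm minus dka, for 12 genes (limma, adjusted p under 0.05): Pola2 by -2.12, Mcm2 by -1.85, Mcm3 by -1.75, Pole by -1.69, Fen1 by -1.68, Rfc5 by -1.62, Mcm6 by -1.43, Tipin by -1.42, Cdt1 by -1.38, Rfc1 by -1.35, Prim1 by -1.32 and Gmnn by -1.27. All 12 had estimates above 0 in dka and below 0 in mmm.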

How the results depend on the processing

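No called gene changed sign, but small medians without calls did: for both drugs against gemcitabine (0.05) the median was -0.101 under array weights and -0.113 to 0.162 with an array left out, and against pemetrexed (-0.02) it was -0.124 to 0.042. With an array left out the median ran from -0.473 to -0.074 for Group3 against Trp53 neurospheres, from 0.175 to 0.513 for dka tumors, from 0.095 to 0.244 for dka tumors against Trp53 neurospheres and from 0.013 to 0.266 for secondary against primary tumors. Under array weights the count of called genes was 20 for the difference between codes (main value 12), 2 for secondary against primary tumors (0), 7 for pemetrexed (0), 27 for gemcitabine (0) and 6 for both drugs (0). Shares over all genes under those weights stand beside these counts above. Leaving out 1 array at a time gave 5 to 13 called genes for Group3 against Trp53 neurospheres (10 with all arrays), 6 to 14 for dka tumors (11), 2 to 18 for mmm tumors (19), 5 to 15 for the code difference (12), 1 to 3 for dka tumors against Trp53 neurospheres (3) and 10 to 20 for secondary tumors against neurospheres (18). The lowest counts came without Trp53 neurosphere replicate 2 or 3 (5 each), without Group3 neurosphere replicate 2 (6 for dka tumors, 10 for secondary tumors), without mmm tumor replicate 4 or 5 (2 each for mmm tumors, 5 and 7 for the code difference) and without Trp53 neurosphere replicate 2 (1 for dka tumors); fewer arrays were then fitted. With mmm neurosphere replicate 7 as the only control, chosen after seeing the data, the median was -0.899 for mmm tumors (-0.58 otherwise) and -1.118 for the code difference (-0.85), with 21 genes called there; this control is 1 array, assumed to vary like the other groups, and its values run from 2.64 to 13.7, unlike the other mmm arrays. The cause of these shifts was not tested. No drug comparison gave a called gene when an array was left out. Of single named genes, 497 results under other settings and 437 with an array left out kept direction and side of the threshold, 27 and 135 lost the threshold, and 5 passed it only under another setting. The 2 or 3 arrays of a group limit what could be detected. No paired analysis was possible because the labels give no replicate numbers.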
